A study of Mus musculus with 12 samples.

Results

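The regions described here are the accessible peaks at the genes of the core TGF-beta pathway: the ligand genes Tgfb1, Tgfb2 and Tgfb3, the receptor genes Tgfbr1, Tgfbr2 and Tgfbr3, and the signal transducer genes Smad2, Smad3, Smad4 and Smad7. A peak was taken as a member when it overlapped the body of 1 of these 10 genes in the GENCODE M21 annotation of the mouse genome (mm10), or the 25 kb on either side of it. This rule uses position only, and it found 189 of the 176680 peaks in the table, none of them in 2 loci. The study used ATAC-seq, in which the Tn5 transposase inserts adapters where DNA is open, and the reads pile up at accessible sites. Primary fibroblasts of wild-type C57BL/6N mouse embryos (E13.5 MEFs) were transduced with lentiviruses, and transgenes were switched on with doxycycline until collection on day 2. The 2 groups compared were 4in1_GFP_OE, which received the 4in1 reprogramming cassette with GFP and the rtTA transactivator, and 4in1_Prox1_OE, which received 4in1 with FLAG-tagged mouse Prox1 and rtTA. Each group had 3 of the series' 12 libraries. The MEF and Prox1_OE libraries, with rtTA alone or rtTA and Prox1, were not analysed here. Both groups therefore carried 4in1 and rtTA, and they differed in Prox1 against GFP.

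TGF-beta ligands are secreted in a latent form and, once freed, bind the receptor kinase Tgfbr2, which activates its partner kinase Tgfbr1. Tgfbr3 (betaglycan) is a co-receptor without kinase activity that presents ligand, Tgfb2 above all. The active receptor phosphorylates Smad2 and Smad3, which join Smad4 and act on DNA in the nucleus, often beside AP-1, while Smad7 blocks the receptor as a feedback inhibitor. In fibroblasts the pathway is known for driving matrix genes and the contractile, myofibroblast state, and Prox1 is a homeodomain transcription factor of hepatocytes and lymphatic endothelium. Accessibility says which DNA is open and does not measure transcription.

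For each peak the authors deposited a log2 mean of normalized read counts per group (its concentration), and the difference is given here as 4in1_Prox1_OE minus 4in1_GFP_OE on that log2 scale. A peak that was less accessible with Prox1 thus has a negative value. Levels are also given as reads, the deposited mean taken off the log scale. Of the windows 176672 have the same width, so levels of different peaks are per equal length. Each level is a pooled mean of the authors without a value per library, so there is no replicate spread, depth per library is unknown, and no difference below was tested. A peak was counted as called when its difference was 1 or more in size, which is a description of size. Promoter peaks were present at 10 of 10 fibroblast markers fixed for the purpose, at 0 of 6 hepatocyte markers (among them Alb), at 3 of 4 endothelial markers without Cdh5, and at 1 of 3 blood markers, which was Cd68.

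As a set, the peaks of the 10 loci were lower with Prox1 about as often as peaks elsewhere. Of the 189 peaks, 143 were lower (75.7%), against 72.3% of all peaks, and their median difference was -0.45, against -0.42 for all peaks. There were 40 peaks at or below -1, a share of 21.2% against 24.4% of all peaks, and 12 at or above 1, a share of 6.35% against 8.33%. The whole table was thus offset towards lower values, and the summed reads of all peaks differed by -0.41. With the median of all peaks set to 0, 16 member peaks lay at or below -1 (8.47%, against 8.64% of all peaks) and 26 at or above 1 (13.8%, against 13.4%). The part of the offset in the value of any peak was not tested. The member peaks differed among themselves by locus, position and strength. In the strip plot by locus, the lowest medians were those of Smad3 (-0.69), Tgfb2 (-0.61) and Tgfbr3 (-0.59), and the highest were those of Smad2 (-0.11), Tgfbr2 (-0.18) and Tgfb1 (-0.23). The Smad2 median rested on weak peaks, and was -0.55 without the weakest 25% of all peaks and 0.23 within the gene body alone. That of Tgfb1 depended on peaks nearer to neighbouring genes, and was -0.95 over the peaks nearest its own start site and -1.21 in the gene body alone. The ranges between the quartiles of all 10 loci overlapped. Relative to all peaks of the same class (promoter or distal) and decile of concentration, the median was -0.20 at Smad3 and -0.17 at Tgfb3. It was -0.16 at Tgfb2 and -0.15 at Tgfbr3, against 0.06 at Smad2, 0.19 at Tgfb1 and 0.38 at Tgfbr2. Tgfbr3 and Smad3, with 63 of the 189 peaks, held 23 of the 40 at or below -1. With the median of all peaks set to 0, 9 of 35 Tgfbr3 peaks and 2 of 28 Smad3 peaks lay there, against 8.64% of all peaks.

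**Figure D1:**
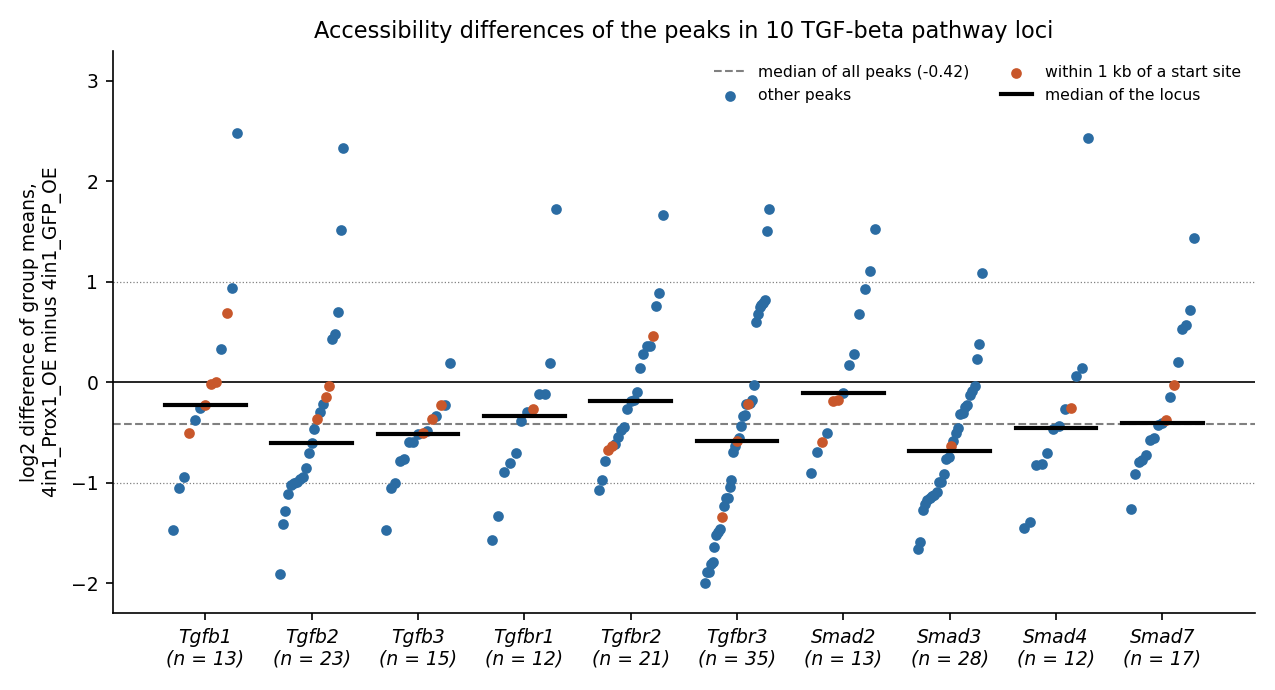
Log2 difference between the authors' group means (4in1_Prox1_OE minus 4in1_GFP_OE) for each of the 189 peaks, by locus and ordered by value within it, with a bar at the locus median, a dashed line at the median of all peaks and dotted lines at -1 and 1. Tgfbr3 and Smad3 hold most of the points below -1, Smad2 holds none, and every locus but Tgfb3 has at least 1 point above 1.

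The 7 windows below carry large differences outside exons and promoters. They are printed from the plus strand of the GRCm38.p6 assembly, the same sequence as mm10, in lower case, with capitals for matches on either strand to the AP-1 motif (TGANTCA), the TEAD motif (GGAATG) or the SMAD box with its flank (CAGACA). The first is the most accessible distal peak of the Tgfbr2 locus, in intron 2 (chr9:116152948-116153148), with 713 reads in 4in1_GFP_OE and 339 in 4in1_Prox1_OE. The second lies 7.0 kb upstream of the Tgfb3 start site (chr12:86085958-86086158), where an AP-1 match and a SMAD box stand next to each other, with 260 and 93.5 reads. The third, in intron 2 of Tgfb2 (chr1:186680658-186680858), had 246 and 92.3 reads. The fourth, in intron 1 of Smad3 (chr9:63737537-63737737), and the fifth, in intron 16 of Tgfbr3 (chr5:107116966-107117166), were the lowest peaks of their loci and hold none of these letters. The last 2 were higher with Prox1. They lie 17.4 kb upstream of Tgfb1, inside the bodies of Tmem91 and Exosc5 but in no exon (chr7:25669499-25669699), and in intron 1 of Tgfbr3 (chr5:107271967-107272167), a window of which 52.2% is soft-masked repeat.
Tgfbr2 intron 2, difference -1.07: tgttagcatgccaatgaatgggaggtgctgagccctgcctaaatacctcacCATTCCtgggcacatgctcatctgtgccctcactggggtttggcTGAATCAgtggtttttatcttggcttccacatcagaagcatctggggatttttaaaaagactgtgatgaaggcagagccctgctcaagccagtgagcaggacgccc
Tgfb3 upstream, difference -1.48: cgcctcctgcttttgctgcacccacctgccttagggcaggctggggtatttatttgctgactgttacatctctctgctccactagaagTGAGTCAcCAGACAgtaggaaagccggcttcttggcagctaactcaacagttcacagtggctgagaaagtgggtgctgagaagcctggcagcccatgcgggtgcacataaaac
Tgfb2 intron 2, difference -1.41: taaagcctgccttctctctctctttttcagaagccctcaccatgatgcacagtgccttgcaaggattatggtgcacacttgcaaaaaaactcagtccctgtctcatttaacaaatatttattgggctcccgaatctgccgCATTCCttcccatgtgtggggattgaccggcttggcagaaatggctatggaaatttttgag
Smad3 intron 1, difference -1.66: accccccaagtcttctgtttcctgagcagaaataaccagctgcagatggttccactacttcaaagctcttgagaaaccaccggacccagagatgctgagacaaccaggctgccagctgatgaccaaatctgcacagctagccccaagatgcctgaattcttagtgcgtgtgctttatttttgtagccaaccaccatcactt
Tgfbr3 intron 16, difference -2.00: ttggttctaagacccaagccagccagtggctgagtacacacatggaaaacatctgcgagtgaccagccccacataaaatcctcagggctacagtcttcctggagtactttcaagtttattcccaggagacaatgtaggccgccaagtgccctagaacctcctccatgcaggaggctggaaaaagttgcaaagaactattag
Tgfb1 upstream, difference 2.48: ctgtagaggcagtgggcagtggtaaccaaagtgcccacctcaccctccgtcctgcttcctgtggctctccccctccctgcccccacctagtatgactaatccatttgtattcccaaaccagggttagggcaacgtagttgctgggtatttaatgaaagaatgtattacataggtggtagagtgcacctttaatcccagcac
Tgfbr3 intron 1, difference 1.72: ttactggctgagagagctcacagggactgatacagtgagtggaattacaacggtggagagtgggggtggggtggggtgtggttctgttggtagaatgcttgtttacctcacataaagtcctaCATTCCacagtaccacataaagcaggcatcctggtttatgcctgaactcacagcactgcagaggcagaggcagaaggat

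At the promoters, each of the 10 genes had an accessible peak within 1 kb of a start site, and all 10 were lower with Prox1, with differences between -0.63 and -0.19. None reached -1. Their median was -0.37. Among the 15152 of 21924 protein-coding genes with such a peak, 82.9% were lower, the median was -0.19 and the quartiles were -0.32 and -0.08, while 2.70% were at or below -1. The promoter of Smad3 stood at 869 reads in 4in1_GFP_OE and 560 in 4in1_Prox1_OE, and that of Tgfbr2 at 864 and 557. Both differed by -0.63, at percentiles 8.20 and 8.23 of all coding gene promoters, counted from the lowest difference. The promoter of Tgfb1 had 556 and 392 reads (-0.50, percentile 12.2). Those of Tgfb2 (543 and 421 reads), Tgfb3 (656 and 507) and Smad7 (783 and 605) each differed by -0.37, at percentiles 20.1 to 20.5. Closest to the promoters of other genes were Tgfbr1 (884 and 733 reads, -0.27), Smad4 (636 and 534, -0.25), Tgfbr3 (609 and 524, -0.22) and Smad2 (805 and 706, -0.19), at percentiles from 33.5 to 51.2. Relative to the median of all peaks, 3 of the 10 promoters (Smad3, Tgfbr2 and Tgfb1) remained lower and 7 were higher. Relative to the median of the strongest 10% of peaks, 7 of the 10 were lower. Relative to all peaks of the same class and decile of concentration, 9 were.

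**Figure D2:**
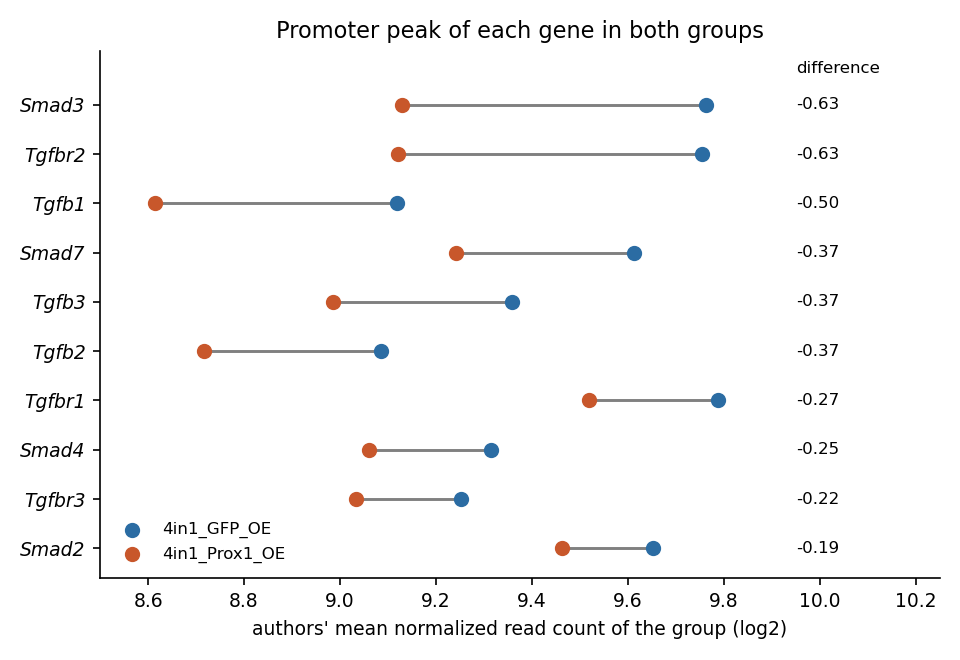
The authors' mean normalized read count (log2) of the promoter peak of each of the 10 genes in 4in1_GFP_OE and 4in1_Prox1_OE, ordered by the difference printed at the right. All 10 lie lower in 4in1_Prox1_OE, with Smad3 and Tgfbr2 at -0.63 and Smad2 at -0.19.

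Among the ligand genes, Tgfb1 (chr7:25687002-25705077, plus strand) had 13 peaks in its locus, 8 of them lower. The pair inside its body were both lower. The one in intron 1, 2.4 kb from the start site, stood at 710 and 368 reads in the GFP and Prox1 groups (-0.95), and the one in intron 5 at 139 and 50.4 (-1.47). Beyond the 3' end, neighbouring peaks went opposite ways. At 19.0 kb from the start site the reads were 264 and 127 (-1.05), and at 20.7 kb they were 172 and 329 (0.94). The upstream window printed above, at 33.3 and 185 reads, had the highest difference of all 189 member peaks (2.48, percentile 99.0 of all peaks), and its nearest coding start site is that of Tmem91, not of Tgfb1. The strongest distal peak of the locus, 24.9 kb from the start site, had 712 and 547 reads (-0.38). This peak and those at 19.0 and 20.7 kb have Ccdc97 as the nearest coding start site.

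Tgfb2 (chr1:186622792-186705989, minus strand), which encodes the ligand that depends most on the co-receptor Tgfbr3, had 23 peaks, of which 18 were lower, 6 at or below -1 and 2 at or above 1, near the 24.4% and 8.33% of all peaks. The 8 distal peaks above the median concentration of all peaks were all lower, from -1.41 to -0.30. The strongest of these lay downstream of the gene, at 478 and 221 reads (-1.11). The 3 peaks in the first 11 kb of the body outside the promoter were alike, at -0.70, -0.85 and -0.999. The weak peaks of the introns went both ways, from 77.1 and 20.6 reads in intron 5 (-1.91) to 14.6 and 73.7 in intron 3 (2.33). All 4 peaks upstream of the gene were lower, the nearest of them, 7.3 kb away, at -0.04.

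Tgfb3 (chr12:86056745-86079041, minus strand) was the most uniform of the ligand loci. Of its 15 peaks 14 were lower, 3 were at or below -1 and none at or above 1, against 72.3%, 24.4% and 8.33% of all peaks. All 5 upstream peaks were lower, the lowest being the window with the adjoining AP-1 and SMAD letters (260 and 93.5 reads, -1.48) and the next the peak 23.7 kb upstream (221 and 106, -1.06). These upstream peaks lie nearer to the start site of Ift43, a gene for a ciliary transport protein, than to that of Tgfb3. Above the median concentration, the highest difference was that of a second promoter peak, at 236 and 201 reads (-0.23). The single higher peak, in intron 4, had 34.0 and 38.7 reads (0.19). The strongest distal peak had 355 and 235 reads (-0.59).

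Among the receptor genes, Tgfbr1 (chr4:47353222-47414931, plus strand), the gene of the signalling kinase that phosphorylates Smad2 and Smad3, had 12 peaks, 10 of them lower. A peak in intron 8 stood at 409 and 162 reads (-1.34) and one downstream at 172 and 58.0 (-1.57), whereas the strongest distal peak, 85.0 kb from the start site, was nearly level at 431 and 398 (-0.11). Both of these downstream peaks have Alg2, not Tgfbr1, as the nearest coding start site. The only peak at or above 1 was a weak one 17.7 kb upstream, with 18.8 and 62.2 reads (1.73).

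Tgfbr2 (chr9:116084293-116175360, minus strand), the gene of the ligand-binding kinase, had 21 peaks, of which 13 were lower and 8 higher. Its promoter was among the lowest of the 10 members, but its distal peaks had a median of only -0.18, above that of all distal peaks (-0.49). The strongest distal peak, in intron 2, was lower (713 and 339 reads, -1.07) and was the only peak of the locus at or below -1. The peaks of intron 4 went both ways, from 214 and 109 reads (-0.97) to 72.0 and 122 (0.76). Of the 5 upstream peaks 3 were higher, one of them at 41.3 and 131 reads (1.67). Above the median concentration, the highest difference was that of a downstream peak at 79.8 and 148 reads (0.89).

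Tgfbr3 (chr5:107106570-107289629, minus strand), the gene of betaglycan and the longest of the 10 at 183.1 kb, had the opposite arrangement. Its promoter was close to the typical promoter (-0.22), yet 14 of its 35 peaks were at or below -1, against the 24.4% of all peaks given above. With the median of all peaks set to 0, 9 lay at or below -1 and 8 at or above 1, against 8.64% and 13.4%. Of these 14, 6 lay in the 3' part of the locus, 5 in introns 3 to 6 and 3 in introns 1 and 2. Of the 10 peaks in introns 14 to 16 and downstream of the gene, 9 were lower and 6 at or below -1, and their summed reads were 2225 and 904. The peak in intron 16 had the lowest difference of all member peaks (260 and 64.8 reads, -2.00, percentile 0.357 of all peaks). The strongest distal peak, downstream of the gene, had 627 and 178 reads (-1.81), and 2 more downstream peaks stood at -1.89. All 10 of these peaks have Cdc7, a gene for a replication kinase, as the nearest coding start site, so their position does not tie them to Tgfbr3. In introns 3 to 6, 9 of 10 peaks were lower and 5 at or below -1. They included one in intron 3 at 236 and 68.2 reads (-1.79) and one in intron 4 at 533 and 226 (-1.23). In introns 1 and 2, by contrast, 6 peaks were lower and 6 higher, with a median of 0.21. These stretches were set off after the values were seen and are a description.

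Among the transducers, Smad3 (chr9:63646767-63757994, minus strand) had the lowest locus median of the 10. Set against the median of all peaks of the same class and decile of concentration, it was -0.20, and 16 of its peaks were lower. Of its 28 peaks 25 were lower and 9 at or below -1, against 72.3% and 24.4% of all peaks. With the median of all peaks set to 0, only 2 lay at or below -1. All 22 of its distal peaks above the median concentration of all peaks were lower. So were 76 of the 89 such peaks of the 10 loci together (85.4%), against 82.9% over the table, with all of them lower at Tgfb2, Tgfb3 and Tgfbr1 as well. The 9 peaks at or below -1 all lay in intron 1. That intron held 19 peaks with summed reads of 5534 and 2972 and a median difference of -0.99. The lowest was at 276 and 87.4 reads (-1.66), 20.4 kb from the start site, and the next at 461 and 153 (-1.60), 83.2 kb from it, while the strongest distal peak of the locus had 447 and 298 reads (-0.59). A weak peak 21.6 kb from the start site, close to the lowest one, was higher, at 46.0 and 97.7 reads (1.09). The 4 peaks in introns 3 to 8, at similar strength (174 to 360 reads in the GFP group), stood between -0.32 and -0.04. Intron 1 peaks at 258 and 217 reads (-0.25) and at 214 and 173 (-0.30) fell in this range too. The 4 peaks of introns 3 to 8, and the 2 intron 1 peaks farthest from the start site, have Aagab as the nearest coding start site. This division too was drawn after the values were seen.

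Smad2 (chr18:76241580-76310963, plus strand), the other receptor-activated Smad gene, had no peak at or below -1. Of its 13 peaks 7 were lower, 6 higher and 2 at or above 1, against 24.4% of all peaks at or below -1 and 8.33% at or above 1, and its 10 distal peaks had a median of 0.23. They were weak, since only 1 of them exceeded the median concentration of all peaks. In the 3 weakest deciles of all peaks, 55.5% were lower and 19.2% at or above 1. Relative to all peaks of the same class and strength, the median over the locus was 0.06. The 2 called peaks had 23.0 and 66.1 reads in intron 2 (1.53) and 34.4 and 74.0 upstream (1.10). The lowest peak above the median concentration, upstream of the gene, had 269 and 178 reads (-0.60). The strongest distal peak, in an exon, had 102 and 114 reads (0.17) and was also the highest above the median concentration.

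Smad4 (chr18:73639009-73703780, minus strand), the partner shared with the BMP branch of the family, had 12 peaks, 9 of them lower. Upstream, 2 peaks close to each other stood at 101 and 38.5 reads (-1.40) and at 110 and 40.1 (-1.46). The strongest distal peak, beyond the 3' end, had 596 and 440 reads (-0.44), and its nearest coding start site is that of Mex3c. Above the median concentration, the differences ran from 221 and 159 reads downstream (-0.47) to 233 and 256 in intron 4 (0.14). One intron 10 peak had 19.4 and 104 reads (2.43), below only the Tgfb1 upstream window among the 189 member peaks.

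Smad7 (chr18:75367529-75395935, plus strand), the gene of the inhibitor, combined lower introns with flanks that went both ways. Of its 17 peaks 12 were lower and 1 at or below -1, against 72.3% and 24.4% of all peaks. All 6 peaks of introns 2 and 3 were lower, from -1.27 to -0.55, and their reads summed to 2510 and 1389. The lowest of these had 513 and 213 reads (-1.27). These 6 were strong, and in the 3 strongest deciles 87.5% of all distal peaks were lower, with a median of -0.61. A promoter peak inside the body, 1.5 kb from the start site, was nearly level at 288 and 282 reads (-0.03). Relative to all peaks of the same class and decile of concentration, the locus median was 0.12. Upstream, 3 of 5 peaks were higher, and the strongest, 24.5 kb away, was nearly level at 699 and 632 (-0.15). Downstream, 2 of 4 were higher, among them one at 181 and 261 reads (0.53).

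**Figure D3:**
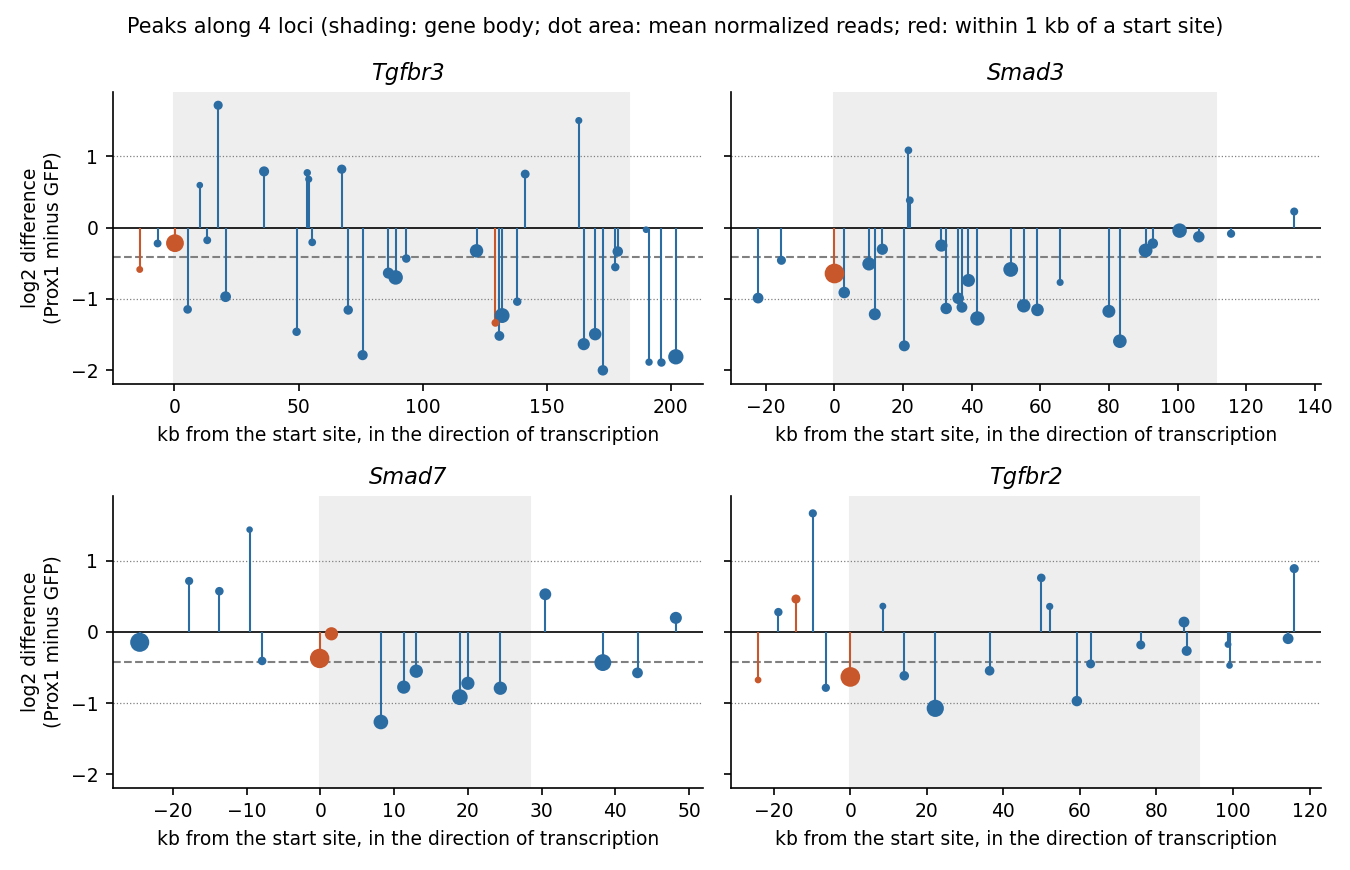
Log2 difference (4in1_Prox1_OE minus 4in1_GFP_OE) of each peak against its distance in kb from the start site for Tgfbr3, Smad3, Smad7 and Tgfbr2, with the gene body shaded, dot area in proportion to the mean normalized reads, red for peaks within 1 kb of any start site and a dashed line at the median of all peaks (-0.42). Tgfbr3 peaks are lowest towards its 3' end, Smad3 peaks along intron 1 and Smad7 peaks in introns 2 and 3, while Tgfbr2 peaks lie on both sides of 0.

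By position, the 102 distal peaks inside the bodies of the members had a median of -0.63, with 27 at or below -1 (26.5%), against a median of -0.48 and 25.9% for all distal peaks in coding gene bodies. The 62 distal peaks of the flanks had a median of -0.38, with 12 at or below -1 (19.4%). Of these, 18 lay inside other coding genes (median -0.47) and 44 outside coding genes (median -0.30, 20.5% at or below -1, against -0.50 and 27.5% for all distal peaks outside coding genes). Peaks within 1 kb of any start site, of which the loci held 25, had a median of -0.25, against -0.21 for all such peaks in the table. By role, the 51 peaks of the ligand loci had a median of -0.49, the 68 of the receptor loci -0.41, the 41 of Smad2 and Smad3 -0.51, the 12 of Smad4 -0.46 and the 17 of Smad7 -0.41. These roles were closer to each other than the loci within them.

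The difference moved with the strength of a peak, and both values come from the same group means. In the 3 weakest deciles of all peaks by concentration, the 42 member peaks had a median of 0.08, against -0.16 for all peaks. In the middle 4 deciles the 61 member peaks had a median of -0.41, against -0.57. In the 3 strongest deciles the 86 member peaks had a median of -0.59, against -0.41 for all peaks, and 93.0% were lower, against 87.1%. All 12 member peaks at or above 1 were distal, and 11 of them had fewer than 50 reads in the GFP group. Their median concentration was 5.82, against 7.38 for the 40 peaks at or below -1. Over the table these medians were 5.86 and 6.80, and 14022 of the 14723 peaks at or above 1 were distal. The part of low counts in these values was not tested, because no value per library was used.

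**Figure D4:**
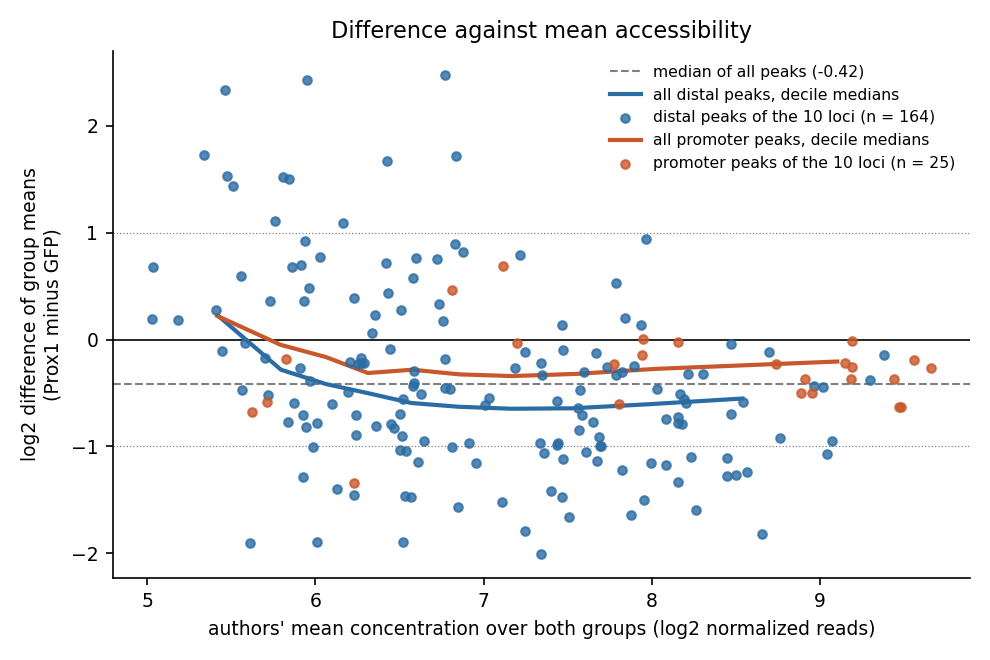
Log2 difference (4in1_Prox1_OE minus 4in1_GFP_OE) of the 189 member peaks against the authors' mean concentration over both groups (log2 normalized reads), with lines through the medians of all distal and all promoter peaks by decile of concentration. Member peaks above 1 lie at the weak end, and strong distal member peaks lie mostly below the line at the median of all peaks (-0.42).

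In sequence, AP-1 letters (TGANTCA, either strand) stood in 46 of the 189 windows (24.3%), against 28.8% of all windows. Member windows with them had a median difference of -0.62 and those without -0.37. Over all windows the medians were -0.82 and -0.29. The SMAD box with its flank (CAGACA) stood in 29 member windows (15.3%, against 19.1% of all windows). With it the member median was -0.22, and without it -0.48, whereas over all windows the order was the other way and the gap small (-0.46 and -0.41). All 29 were distal. Among distal windows alone, the medians with and without it were -0.22 and -0.55 for members, against -0.49 and -0.49 over the table. The median concentrations of these distal member windows were 6.72 and 6.85. The part of class or strength in this gap was not tested. TEAD letters (GGAATG) stood in 43 windows (22.8%, against 20.1%), with medians of -0.47 with them and -0.43 without, against -0.64 and -0.37 over all windows. A CTCF core with at most 1 mismatch stood in 10 windows (5.29%, against 7.75%), with a median of -0.11, against -0.47 for the rest, where all windows had -0.18 and -0.47. The Prox1 consensus with at most 1 mismatch stood in 0 of the 189 windows, and in 538 windows of the table (0.305%), whose median difference was -0.75. Windows can hold several of these motifs, and a match or its lack is a statement about letters in the window.

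Around the 10 genes, the promoter peaks of 45 other genes of the pathway were read out by the same rule, from lists chosen by function. Of these 45 promoters 40 were lower and 5 higher, with a median of -0.24, and only Thbs1 was at or below -1, beside the 2.70% of all coding gene promoters. The 8 target genes of the pathway were all lower, with a median of -0.55, and 6 of them lay below the median of all peaks, as did 16.7% of all coding gene promoters. The collagen gene Col1a2 stood at -0.63 (percentile 8.43 of coding gene promoters) and Acta2, the smooth muscle actin gene that marks myofibroblasts, at -0.58 (9.75), while Fn1 stood at -0.35 and Tgfbi at -0.06. Of the 11 genes for latency and activation 10 were lower, with a median of -0.39. Here Thbs1, whose product frees latent ligand, stood at -1.07 and Nrros, which tethers latent ligand, at -0.95, while Ltbp2 stood at -0.08 and the integrin gene Itgb6 at 0.54. Of 10 other receptor genes of the family 8 were lower (median -0.23), from Acvrl1 at -0.67 and Bmpr1b at -0.65 to Acvr2b at 0.13 and Acvr1c at 0.31. The 12 regulators, with 10 lower, had a median of -0.16, from Tgif1 at -0.41 and Pmepa1 at -0.27 to Smurf1 at 0.08 and Tgif2 at 0.10. The other 4 Smad genes, which serve the BMP branch, all stood between -0.15 and -0.07. The fibroblast genes Col1a1, Col1a2 and Fn1 are both targets and fibroblast markers here, and 9 of 10 fibroblast marker promoters were lower, with a median of -0.41. The promoter peaks of other cell types were lower too, at 3 of 3 endothelial markers with a peak (median -0.68) and at Cd68 of blood (-0.51). The part of these cell type markers in the values of the targets was not tested.

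**Figure D5:**
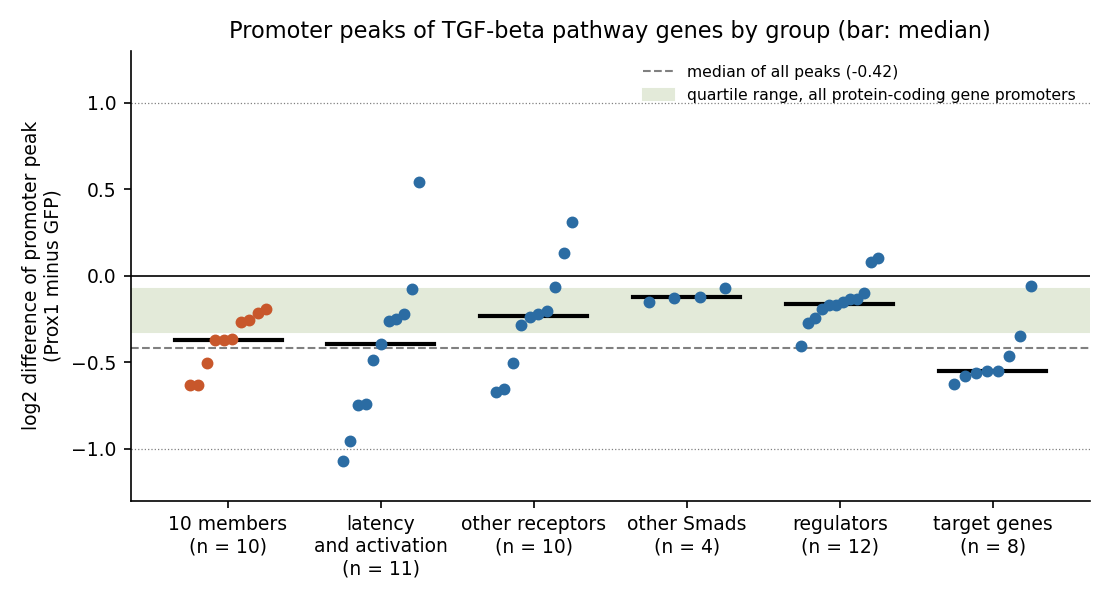
Log2 difference (4in1_Prox1_OE minus 4in1_GFP_OE) of the promoter peak of the 10 members and of 45 other pathway genes by functional group, with bars at the medians, shading between the quartiles of all protein-coding gene promoters (-0.32 and -0.08) and a dashed line at the median of all peaks (-0.42). The target genes have the lowest median (-0.55), and the medians of the other receptors (-0.23), other Smads (-0.12) and regulators (-0.16) lie within the shaded range.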

How the data were processed

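According to the methods, Trimmomatic (0.38) served for trimming and Bowtie2 (2.3.4.3) for alignment to mm10, and the authors cleaned the alignments with SAMtools (1.10), Picard (2.18.16) and bedtools (2.27.1). Their methods name MACS2 as peak caller and their reporting summary Genrich, which leaves the caller open to doubt. The authors counted reads in a consensus set of windows and compared groups with DiffBind (3.4.11), following the vignette of that version; no normalization setting is spelled out in the sources used here, and a normalization that leaves total reads in peaks unequal shifts every difference. The values used are log2 means of normalized read counts, overall and per group, as the authors deposited them. The table also holds the authors' fold changes, p-values and FDR, and 2 peak lists hold their calls. None of these was used, so no test was made.

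Differences were computed with Python 3.11.15 and pandas 2.3.3. The locus limits, the centring and the calls by size were tried on simulated peaks, and the other steps were not. All 176680 peaks lay inside the chromosomes of GRCm38.p6, and 6 of 6 RefSeq promoter sequences of the members equalled that assembly. Intron numbers follow the transcript with the longest coding sequence. In each locus the text names the promoter peak (highest concentration within 1 kb of a start site), the lowest and highest difference among peaks at or above the median concentration, and the strongest distal peak. Others named were chosen after their values were seen. The members and lists were chosen with earlier results of these data known. Of the pathway genes listed, 1 is not reported here. Alternatives were other centrings, locus limits, call sizes and filters, and leaving out each locus.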

Additional observations from a re-analysis of the deposited data

How the results depend on the processing

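No paired analysis was possible because the deposited values are group means. Nor could libraries be compared or left out. Centring on the median of all peaks gave 16 peaks at or below -1, 26 at or above 1, a median of -0.032 and 51.9% lower. Centring on equal totals gave 17 (8.99%, against 8.80% of all peaks), 26 (13.8%, against 13.3%), -0.037 and 51.9%, and centring on the strongest 10% of peaks 23 (12.2%, against 13.9%), 20 (10.6%, against 11.2%), -0.19 and 59.8%. Relative to all peaks of the same class (promoter or distal) and decile of concentration, chosen after seeing the data, there were 10 and 24 peaks (5.29% and 12.7%, against 12616 and 23018 of the 176680 peaks, the former 7.14%), the median turned to 0.0123 and 49.2% were lower. Gene bodies alone gave 28 peaks at or below -1, 6 at or above 1 and a median of -0.60 over 110 peaks. No share over all peaks was computed for this limit. Among distal peaks in the bodies, 26.5% were at or below -1 and 5.88% at or above 1. The shares were 25.9% and 8.69% for all distal peaks in coding gene bodies. Without the weakest 25% of peaks, 4 were at or above 1 (2.67%, against 4.14%) and 82.7% were lower (against 78.6%). Call sizes of 0.5 and 1.5 gave 89 and 11 peaks on the low side (47.1% and 5.82%, against 46.2% and 6.35% of all peaks), and a size of 0.5 gave 28 on the high side (14.8%, the share of all peaks too). Leaving out each locus in turn gave 26 to 40 peaks at or below -1, the fewest without Tgfbr3, 10 to 12 at or above 1, medians of -0.47 to -0.41 and shares lower of 73.3% to 77.4%. All 10 promoters stayed lower within a window of 2 kb. Centred on the median of all peaks, 5 of 10 locus medians lay below 0, and the lowest peaks above the median concentration of Tgfb1 (-0.64), Tgfb2 (-0.997), Tgfbr2 (-0.66) and Smad7 (-0.85) no longer reached -1. Relative to class and decile, 6 of these lowest peaks no longer reached it, with Tgfb3 (-0.83) and Tgfbr1 (-0.94) added. That of Smad4 turned from -0.47 to 0.17. The Tgfb1 locus median moved from -0.23 to -1.21 in the gene body alone, to -0.95 over peaks nearest its own start site and to -0.017 with flanks of 50 kb. The Smad2 locus median moved from -0.11 to -0.55 without the weakest 25% of peaks, to 0.23 in the gene body alone and to 0.17 without windows over 50% soft-masked. Depth per library is unknown.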

Other observations

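Of the 189 peaks, 17 lay within 1 kb of a start site of another gene, 4 of them being promoter peaks of a member as well. Of the 17, 14 were lower, with a median of -0.23, against 77.9% and -0.21 for all promoter peaks of the table. In the Tgfb1 locus the promoter peak of Tmem91 stood at 106 reads in 4in1_GFP_OE and 172 in 4in1_Prox1_OE (0.69), that of B9d2 at 588 and 581 (-0.02), and those of Ccdc97 at 462 and 394 (-0.23) and at 247 and 248 (0.01). The Tmem91 promoter lies on the same side of Tgfb1 as the upstream window of the highest difference (2.48). In the Tgfb3 locus the promoter of Ift43 had 581 and 410 reads (-0.50), lower than the promoter of Tgfb3 itself (-0.37). A predicted gene inside intron 4 of Tgfbr3, Gm43423, had a start site peak at 107 and 42.5 reads (-1.34). It was the only one of the 17 at or below -1, against 8.26% of all promoter peaks.

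Of the 189 member windows 3 were over 50% soft-masked repeat (1.59%, against 5.28% of all windows), while 41.3% had no masked base, against 46.3% of all windows. Over the whole table windows over 50% soft-masked made up 11.7% of the peaks at or above 1 and 4.57% of those at or below -1.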
